A study of Mus musculus with 11 samples.

Results

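A set of ADAMTS protease genes was examined in infarcted and sham-operated mouse hearts together with papilin, a matrix glycoprotein related to them. The set was fixed by gene name when it was already known that its genes move in both directions in these data. It holds 10 genes, Adamts1, Adamts2, Adamts4, Adamts5, Adamts7, Adamts8, Adamts9, Adamts12, Adamts15 and Papln, of 55513 in the table. The RNA came from the hearts of 11 female C57BL/6J mice, 8 weeks old, and was sequenced as poly(A) RNA. In 8 mice the left anterior descending coronary artery (LAD) was ligated, which causes a myocardial infarction (MI), and the infarct with its border zone was collected after 3 days. Osmotic minipumps delivered GI254023X, a hydroxamate that inhibits ADAM10 (A10i, 100 mg/kg), to 4 of these mice and its solvent DMSO to the other 4 (DMSO). Healthy heart tissue was taken from 3 mice with sham surgery that were also given DMSO (Sham). No Sham mice with A10i are among the samples, so an effect of the inhibitor without MI could not be compared, and Sham differs from both MI groups in surgery and in the tissue taken. The sample labels give no time after surgery for the Sham mice.

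ADAMTS proteins are secreted zinc metalloproteases with thrombospondin repeats that bind them to the extracellular matrix. ADAM10 belongs to a related family, but it is anchored in the cell membrane and sheds ectodomains. One group of ADAMTS proteases, the hyalectanases, cuts the large proteoglycans that bind hyaluronan, of which versican is the main one in the heart. Another group removes the N-propeptides of fibrillar procollagens, a step that lets collagen fibrils assemble in a scar, and ADAMTS7 and ADAMTS12 cut cartilage oligomeric matrix protein (COMP). Papilin carries the ancillary domains of the family without the protease domain.

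All 10 genes passed the filter on low counts in each comparison, and all but Adamts5 differed between MI with DMSO and Sham at an adjusted p under 0.01. Against Sham, 7 genes rose and 2 fell in either MI group. Among all genes tested, 12.9% rose and 9.6% fell with DMSO, and 13.8% rose and 9.09% fell with A10i. Of the 7, Adamts4 passed the filter through the infarcted hearts alone, so its call adds no support. Adamts1, Adamts4 and Adamts9 had their highest mean with DMSO and a lower mean with A10i, Adamts7 and Papln had their lowest mean with DMSO and an intermediate one with A10i, and Adamts2, Adamts8, Adamts12 and Adamts15 rose in both MI groups, whose values overlapped. The values of the MI groups also overlapped for Adamts1, Adamts4 and Papln. Adamts5 was the single gene whose DMSO mice all lay below the Sham mean while its A10i mice all lay above it. Between A10i and DMSO no member and no other gene passed the adjusted threshold of 0.01 in edgeR, and Adamts9 passed 0.05.

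**Figure D1:**
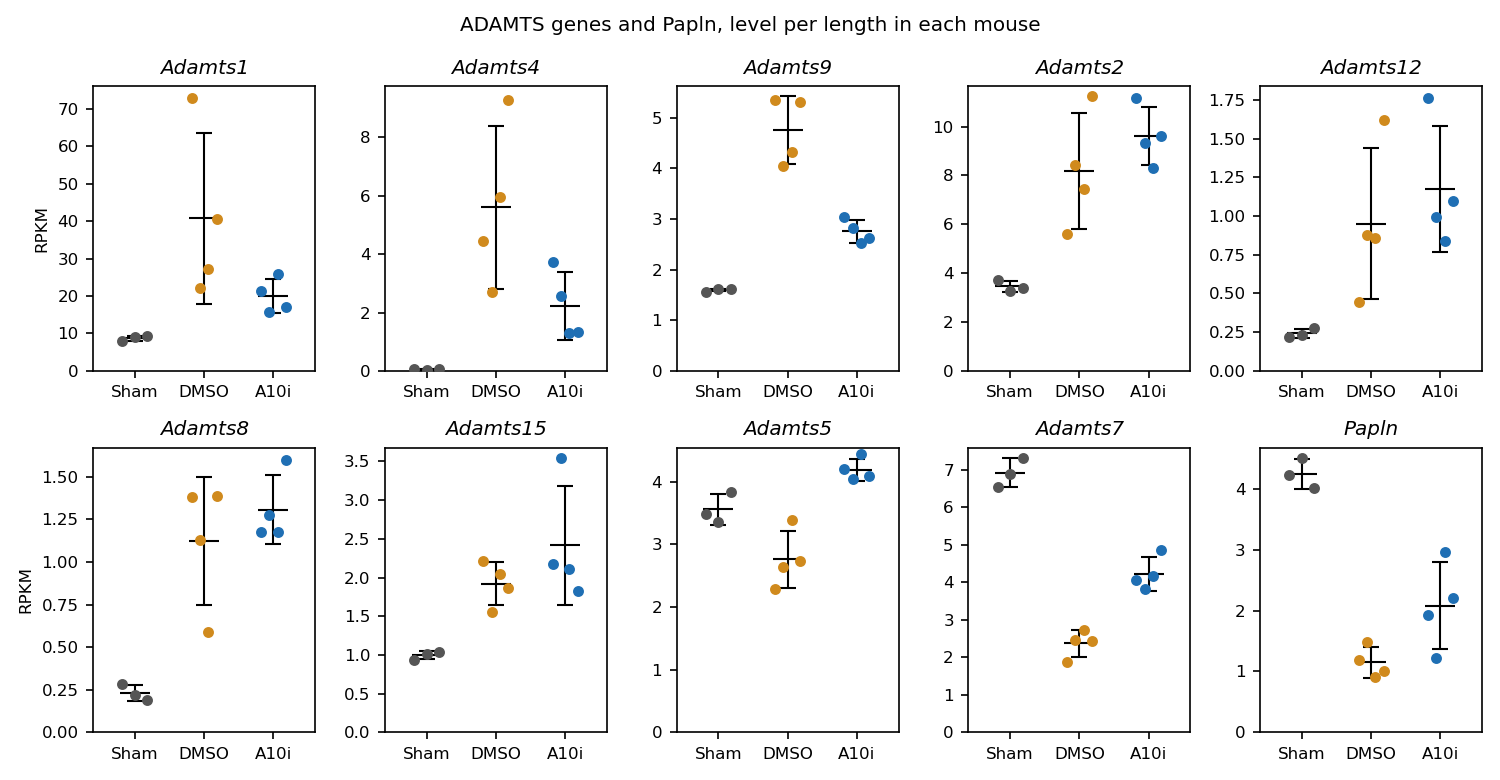
Level of each of the 10 genes in each mouse, in counts per gene length and library size (RPKM, vertical axis, a separate linear scale from 0 for each gene), for 3 Sham, 4 DMSO and 4 A10i mice; points are mice, and the line with bars is the mean ± SD. Adamts9 and Adamts7 separate all 3 groups, Adamts4 is near 0 in Sham, and Adamts1 is spread widely in the DMSO group, from 22.2 to 72.9 RPKM.

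The count of each library lay between 21702659 and 29511782, and mitochondrial genes held 14.8 to 22.2% of it. The 6 neutrophil markers together reached 67.6 to 125.7 CPM (counts scaled by library size) with DMSO, 13.6 to 47.5 with A10i and 1.05 to 2.08 in Sham, where Mmp8 was at 0 in 2 libraries and Retnlg in 1. The 8 cardiomyocyte markers summed to 73000 to 74180 CPM in Sham, 36270 to 51980 with DMSO and 42220 to 57340 with A10i, and the 7 fibroblast markers to 807 to 891, 1018 to 2383 and 2204 to 3396 CPM. Of the cardiomyocyte markers 4 fell with DMSO, led by Myh6 (-1.19 on the log2 scale), while Tnnt2 had 0.10 and Actn2 0.19. Of the fibroblast markers only Col1a1 was called with DMSO, where the list median was 0.26, and 6 of 7 rose with A10i. Over all genes tested, 12.9% rose and 9.6% fell with DMSO, and 13.8% rose with A10i. In such tissue libraries, fewer cells of a type and less RNA per cell cannot be told apart. The part of these shifts in the results below was not tested.

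Promoter windows from RefSeq (GRCm38.p6, 250 bases before to 50 after the start) were at hand for 5 of the 10 genes: Adamts1, Adamts2, Adamts9, Adamts12 and Papln. The windows of Adamts4, Adamts5, Adamts7, Adamts8 and Adamts15 were not used here. The following 3 are shown because they belong to a pair of genes with their highest mean in the DMSO group and to one with its lowest mean there. Capitals mark the letters of the motifs that were found.
Adamts1, chr16:85803064-85803363, minus strand: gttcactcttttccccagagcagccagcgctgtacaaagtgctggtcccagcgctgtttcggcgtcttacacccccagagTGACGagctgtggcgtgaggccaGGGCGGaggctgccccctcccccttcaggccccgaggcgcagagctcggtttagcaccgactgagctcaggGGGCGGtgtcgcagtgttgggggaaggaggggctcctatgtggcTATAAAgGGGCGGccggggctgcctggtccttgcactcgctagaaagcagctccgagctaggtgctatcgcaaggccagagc
Adamts9, chr6:92943485-92943784, minus strand: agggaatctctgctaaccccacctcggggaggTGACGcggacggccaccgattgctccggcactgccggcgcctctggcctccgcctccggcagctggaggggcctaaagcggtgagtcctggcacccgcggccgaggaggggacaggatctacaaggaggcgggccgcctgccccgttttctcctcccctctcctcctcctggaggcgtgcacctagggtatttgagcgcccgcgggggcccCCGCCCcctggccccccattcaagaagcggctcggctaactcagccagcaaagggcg
Papln, chr12:83763384-83763683, plus strand: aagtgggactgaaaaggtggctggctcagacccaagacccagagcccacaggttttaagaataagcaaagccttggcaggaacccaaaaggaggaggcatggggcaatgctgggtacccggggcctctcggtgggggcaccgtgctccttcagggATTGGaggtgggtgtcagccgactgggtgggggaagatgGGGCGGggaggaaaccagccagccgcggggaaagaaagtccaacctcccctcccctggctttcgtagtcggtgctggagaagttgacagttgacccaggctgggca

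Of 8 motifs searched on both strands, the TATA box letters TATAAA stood 32 bases before the start of Adamts1 and in no other of the 5 windows, against 13.6% of all 32851 promoter windows of the same length. The letters TGACG, the core of the cAMP response element, stood in the windows of Adamts1 (170 bases before the start), Adamts9 (218 bases) and Adamts12 (205 bases) and in 20.8% of all windows. The GC box GGGCGG occurred 3 times in Adamts1, 5 times in Adamts2 and once each in Adamts9 and Papln, and in 35.7% of all windows. In Adamts1 the GC box nearest the start is separated from the TATA box letters by 1 base. The CCAAT box was found in Papln alone of the 5 windows and in 37.4% of all windows. No window held the AP-1 site TGANTCA (7.81% of all windows), the full cAMP response element TGACGTCA (1.79%, which contains TGACG), the hypoxia response core ACGTG (19.6%) or the NF-kB site GGGNNTTCC (5.82%). The windows were 61 to 77.3% G and C, where the median of all windows was 52.7%. A match gives letters in a window, and binding was not measured. The RefSeq start of Adamts9 used here lies 42 bases from the GENCODE start, that of Adamts12 17 bases, and those of Adamts1 and Papln coincide with it.

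In Sham hearts Adamts1 had the highest level of the 10 genes. Its level per length was 8.68 ± 0.724 RPKM (mean ± SD, n = 3), followed by Adamts7 with 6.92 ± 0.389, Papln with 4.24 ± 0.244, Adamts5 with 3.56 ± 0.25 and Adamts2 with 3.46 ± 0.231. The ranges of Adamts5 and Adamts2 overlapped, whereas each of the others was clear of its neighbour. Adamts9 had 1.6 ± 0.026 RPKM and Adamts15 0.998 ± 0.0552. Adamts12 and Adamts8, with 0.243 and 0.231, could not be ordered, and Adamts4 was lowest with 0.0482 ± 0.0225. After MI with DMSO the order was Adamts1 (40.7 ± 22.8 RPKM, n = 4), Adamts2 (8.19 ± 2.37), Adamts4 (5.6 ± 2.79), Adamts9 (4.76 ± 0.675), Adamts5 (2.76 ± 0.458), Adamts7 (2.38 ± 0.363), Adamts15 (1.92 ± 0.277), Papln (1.15 ± 0.249), Adamts8 (1.12 ± 0.374) and Adamts12 (0.951 ± 0.489). In that order only Adamts1, Adamts9 and Adamts15 were clear of the gene that followed. With A10i, Adamts7 (4.22 ± 0.446 RPKM, n = 4) and Adamts5 (4.19 ± 0.179) came next behind Adamts1 (20.1 ± 4.57) and Adamts2 (9.61 ± 1.19), and the genes from Adamts9 (2.76 ± 0.226) down to Adamts12 (1.17 ± 0.406) each overlapped the next. Ranks by length-scaled counts (TPM) were the same in each group.

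**Figure D2:**
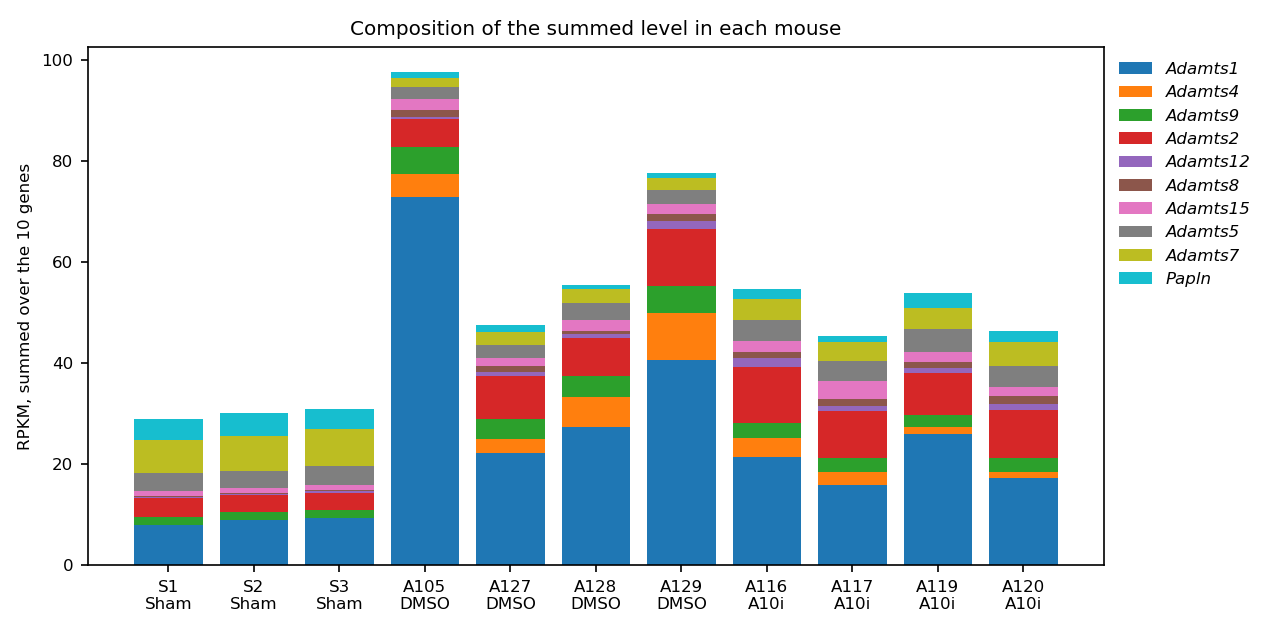
RPKM of the 10 genes stacked for each of the 11 mice (vertical axis, linear from 0; colours are genes; labels give the mouse and its group). The sum is 28.9 to 31 in Sham, 47.5 to 97.7 with DMSO and 45.4 to 54.6 with A10i, and Adamts1 holds most of the rise in mouse A105.

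The summed level of the 10 genes was 28.9, 30.1 and 31 RPKM in the Sham mice. It was 97.7, 47.5, 55.5 and 77.6 with DMSO and 54.6, 45.4, 53.8 and 46.4 with A10i, so the MI groups overlapped each other and neither overlapped Sham. Adamts1 made up 27.2 to 29.8% of this sum in Sham, 46.6 to 74.6% with DMSO and 34.8 to 48.3% with A10i. Adamts7 went from 22.6 to 23.6% in Sham to 1.92 to 5.18% with DMSO and 7.45 to 10.5% with A10i, and Papln from 12.9 to 14.9% to 1.21 to 3.12% and 2.69 to 5.49%.

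The first question was which of these genes differ between infarcted and sham-operated hearts. Of the 10 genes, 7 rose and 2 fell with DMSO, where 12.9% of the 17119 genes tested rose and 9.6% fell (edgeR's quasi-likelihood test, Benjamini-Hochberg adjusted p under 0.01). With A10i, 7 rose and 2 fell as well, beside 13.8% and 9.09% of 17004 genes. The MI and Sham groups did not overlap for 9 of the 10 genes with DMSO and for 10 of 10 with A10i, against 48.7% and 48.2% of all genes tested. The median log2 fold change of the 10 genes was 1.41 with DMSO and 1.25 with A10i, beside 0.0021 and -0.0056 over all genes. Adamts4 passed the filter through the infarcted hearts alone, so its call adds no support to these counts. Without it, 6 of 9 genes rose and 2 fell in either group, with medians of 1.24 and 1.21. Both comparisons use the same 3 Sham mice, so their values are only set side by side. Scaling by library size alone moved the median of all genes to 0.21 and 0.18 and the calls over all genes from 2214 higher and 1643 lower to 3330 and 708 with DMSO, and from 2339 and 1546 to 3435 and 576 with A10i. No member changed sign under it.

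**Figure D3:**
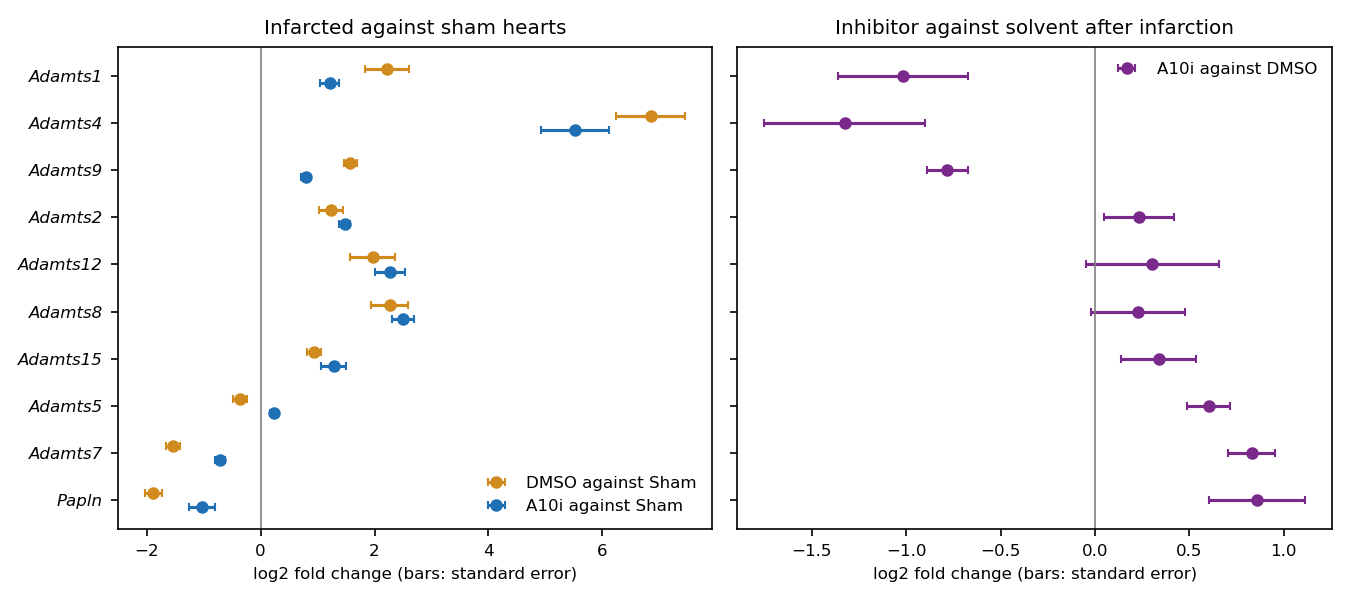
Log2 fold change of each gene (horizontal axis, bars are the standard error), for both MI groups against Sham on the left and for A10i against DMSO on the right; the vertical line marks 0. On the left the order runs from Adamts4, at 6.85 and 5.53, to Papln, at -1.89 and -1.03. On the right Adamts1, Adamts4 and Adamts9 lie below 0 and the other 7 genes above it.

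Among the hyalectanases, Adamts1 (ENSMUSG00000022893, chr16:85793827-85803113, minus strand), a protease first described with inflammation that cuts versican and aggrecan, was the most abundant. Its normalised counts were 1065, 1213 and 1250 in Sham, 9874, 3004, 3689 and 5512 in the DMSO mice A105, A127, A128 and A129, and 2888, 2144, 3517 and 2328 in the A10i mice A116, A117, A119 and A120. All 8 infarcted hearts lay above all Sham hearts, A105 stood highest, and 1 A10i mouse reached into the DMSO range. Adamts1 rose with DMSO by 2.23 ± 0.384 on the log2 scale (estimate ± SE, 4.68-fold, edgeR adjusted p = 0.00249) and with A10i by 1.21 ± 0.165 (2.32-fold, edgeR adjusted p = 0.000906). The call with DMSO was lost when S1, S2, S3 or A129 was left out (edgeR adjusted p = 0.0146 to 0.02), and that with A10i when A116 was left out (0.0102).

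Adamts4 (ENSMUSG00000006403, chr1:171250421-171260637, plus strand), known as aggrecanase and induced by inflammatory cytokines, had the largest log2 fold change of the 10 genes. The Sham libraries held 6, 3 and 8 raw counts, in all 17 (exact Poisson 95% interval 9.9 to 27.2, counting error only), so the gene passed the filter through the infarcted hearts. The normalised counts were 549, 333, 731 and 1142 with DMSO and 459, 315, 158 and 162 with A10i, so each infarcted heart was far above Sham, while 3 of the A10i mice lay below the DMSO range and 1 within it. Adamts4 rose by 6.85 ± 0.604 on the log2 scale with DMSO (115-fold, edgeR adjusted p = 0.000154) and by 5.53 ± 0.599 with A10i (46.1-fold, edgeR adjusted p = 0.000407). Without any filter the edgeR adjusted p was 0.00222 and 0.00457.

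Adamts9 (ENSMUSG00000030022, chr6:92772699-92943492, minus strand), a versican-cutting protease conserved down to worms, varied little within groups. Its normalised counts were 602, 620 and 620 in Sham, 2059, 1556, 1660 and 2044 with DMSO and 1171, 1085, 974 and 1011 with A10i. No value of a group fell into the range of another. It rose by 1.57 ± 0.115 on the log2 scale with DMSO (2.97-fold, edgeR adjusted p = 4.2e-05) and by 0.79 ± 0.078 with A10i (1.73-fold, edgeR adjusted p = 0.000167). It shares 1381 exonic bases with A730049H05Rik on the opposite strand, which averaged 4.67 normalised counts in Sham, 37.7 with DMSO and 19.4 with A10i. The strand setting of the counting is not given in the sources used here, so reads of such overlaps cannot be assigned with certainty.

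Adamts5 (ENSMUSG00000022894, chr16:85856173-85901828, minus strand), a major aggrecanase that also cuts versican, is the neighbour of Adamts1, 53.1 kb away on the same strand with no coding gene between them. Its normalised counts were 961, 926 and 1059 in Sham, 631, 730, 934 and 755 with DMSO and 1160, 1114, 1224 and 1127 with A10i. The DMSO value of A128 lay within the Sham range, and the A10i mice were above all others. Neither difference to Sham passed the threshold: it was -0.37 ± 0.125 with DMSO (edgeR adjusted p = 0.0401) and 0.24 ± 0.07 with A10i (edgeR adjusted p = 0.0204). Without A128 the first was -0.48 and passed (edgeR adjusted p = 0.00514).

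Adamts8 (ENSMUSG00000031994, chr9:30942562-30963838, plus strand), a protease described as an inhibitor of angiogenesis, and Adamts15 (ENSMUSG00000033453, chr9:30899155-30922452, minus strand), a versican-cutting protease of muscle, are neighbours too, 20.1 kb apart on opposite strands. Adamts8 had 33.2, 25.8 and 22.7 normalised counts in Sham, 163, 133, 69.7 and 164 with DMSO and 139, 150, 138 and 189 with A10i. Adamts15 had 248, 269 and 276 in Sham, 584, 413, 541 and 495 with DMSO and 575, 940, 560 and 485 with A10i. For both genes the infarcted hearts lay above Sham and the MI groups overlapped. Adamts8 rose by 2.27 ± 0.326 on the log2 scale with DMSO (4.83-fold, edgeR adjusted p = 8e-04) and by 2.50 ± 0.201 with A10i (5.66-fold, edgeR adjusted p = 7.85e-05). Adamts15 rose by 0.94 ± 0.128 (1.92-fold, edgeR adjusted p = 0.00064) and by 1.28 ± 0.217 (2.43-fold, edgeR adjusted p = 0.00226). The Adamts15 call with A10i was lost when S1, S2, S3 or A116 was left out (edgeR adjusted p = 0.01 to 0.0136). Adamts8 shares 489 exonic bases with Gm29724 on the opposite strand, which averaged under 1 normalised count in each group.

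Adamts2 (ENSMUSG00000036545, chr11:50602084-50807573, plus strand) removes the N-propeptides of fibrillar procollagens. Its normalised counts were 889, 784 and 807 in Sham, 1334, 2015, 1781 and 2687 with DMSO and 2668, 2224, 1983 and 2292 with A10i. All infarcted hearts were above Sham, with A105 the lowest of them, and the MI groups overlapped. The gene rose by 1.24 ± 0.208 on the log2 scale with DMSO (2.36-fold, edgeR adjusted p = 0.00225) and by 1.48 ± 0.101 with A10i (2.78-fold, edgeR adjusted p = 5.14e-05). The DMSO call was lost when S1, S2 or S3 was left out (edgeR adjusted p = 0.0106 to 0.0138).

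Adamts12 (ENSMUSG00000047497, chr15:11064790-11349231, plus strand) and Adamts7 (ENSMUSG00000032363, chr9:90163069-90208071, plus strand), the paralogs that cut COMP, went in opposite directions. Adamts12 had 62, 64.1 and 77.3 normalised counts in Sham, 125, 244, 240 and 453 with DMSO and 492, 278, 234 and 306 with A10i. It rose by 1.97 ± 0.393 on the log2 scale with DMSO (3.91-fold, edgeR adjusted p = 0.00478) and by 2.27 ± 0.268 with A10i (4.84-fold, edgeR adjusted p = 0.000499), and the DMSO call was lost when S1, S2 or S3 was left out (edgeR adjusted p = 0.0206 to 0.0262) and with limma-voom (adjusted p = 0.0124). Adamts7 had 1051, 1105 and 1175 normalised counts in Sham, 301, 395, 440 and 392 with DMSO and 653, 612, 668 and 780 with A10i. The 3 groups of Adamts7 did not overlap. It fell by 1.54 ± 0.12 on the log2 scale with DMSO (2.91-fold lower, edgeR adjusted p = 5.58e-05) and by 0.71 ± 0.087 with A10i (1.63-fold lower, edgeR adjusted p = 0.000375). Adamts7 shares 122 exonic bases with Tbc1d2b on the opposite strand, which averaged 647, 591 and 765 normalised counts in Sham, DMSO and A10i.

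Papln (ENSMUSG00000021223, chr12:83763634-83792382, plus strand), which encodes papilin, a glycoprotein of basement membranes, had 609, 647 and 577 normalised counts in Sham. It had 170, 213, 132 and 146 with DMSO and 278, 176, 425 and 317 with A10i. All infarcted hearts lay below Sham, and the A10i mouse A117 lay within the DMSO range while the other A10i mice were above it. Papln fell by 1.89 ± 0.15 on the log2 scale with DMSO (3.70-fold lower, edgeR adjusted p = 6.2e-05) and by 1.03 ± 0.234 with A10i (2.04-fold lower, edgeR adjusted p = 0.0088). The A10i call was lost when S1, S2, S3, A116 or A120 was left out (edgeR adjusted p = 0.0183 to 0.0561). The summed smooth muscle and pericyte markers were lower in infarcted hearts too, at 711 to 947 CPM with DMSO and 868 to 1097 with A10i against 1466 to 1550 in Sham. Of the 7 markers, Rgs5, Kcnj8 and Abcc9 fell in both groups, whereas Cnn1 rose with A10i by 1.76 and had 1.03 with DMSO. The list medians were -0.15 and -0.06 on the log2 scale. Summed cardiomyocyte markers were also lower in infarcted hearts, and the part of either shift in the fall of Papln was not tested.

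The second question was whether the inhibitor changed the family after MI. With an adjusted p under 0.01 in edgeR, 0 of the 10 genes and 0% of the 16793 genes tested were called, and at 0.05 Adamts9 was 1 of 12 genes (0.0715%). At an unadjusted p under 0.05, 3 of the 10 genes were higher with A10i (Adamts5, Adamts7 and Papln) and 3 lower (Adamts1, Adamts4 and Adamts9), beside 7.1% and 6.73% of all genes tested. A10i and DMSO values were separate for 3 of the 10 genes (Adamts5, Adamts7 and Adamts9), against 8.13% of all genes. DESeq2 at an adjusted p under 0.01 called the same 3 genes, where it called 231 of 17549 genes (1.32%). The study's text names Adamts9 from these libraries, and the other genes were listed with results of these data known, so their direction here is not independent evidence.

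The mean of Adamts9 was 1830 normalised counts with DMSO and 1060 with A10i, a log2 difference of -0.78 ± 0.109 (95% interval -1.03 to -0.54, edgeR adjusted p = 0.048). Leaving out 1 mouse at a time gave -0.86 to -0.72 with adjusted p between 0.0291 and 0.198 in edgeR. Adamts7 had a mean of 382 with DMSO and 678 with A10i, a difference of 0.83 ± 0.125 (95% interval 0.55 to 1.11, edgeR adjusted p = 0.0581), and Adamts5 had 762 and 1156, a difference of 0.60 ± 0.113 (95% interval 0.35 to 0.85, edgeR adjusted p = 0.0794). In DESeq2 the adjusted p was 1.2e-06 for Adamts9, 7.4e-06 for Adamts7 and 0.00101 for Adamts5. In each of these genes the A10i mice lay apart from the DMSO mice.

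The other 3 genes with an unadjusted p under 0.05 overlapped between the groups. Adamts4 had a mean of 689 normalised counts with DMSO and 274 with A10i, a log2 difference of -1.33 ± 0.425 (95% interval -2.28 to -0.37, edgeR adjusted p = 0.222). Adamts1 had 5520 and 2720, a difference of -1.02 ± 0.343 (95% interval -1.79 to -0.25, edgeR adjusted p = 0.238). Mouse A105 carried much of it, since the difference of Adamts1 was -0.58 without that mouse. Papln had 165 and 299, a difference of 0.86 ± 0.254 (95% interval 0.29 to 1.43, edgeR adjusted p = 0.19). Neither edgeR nor DESeq2 called these 3 genes at an adjusted p under 0.01, and DESeq2 gave an adjusted p of 0.0401 for Papln.

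For the remaining 4 genes the intervals of the difference included 0. They ran from -0.19 to 0.65 for Adamts2, from -0.32 to 0.78 for Adamts8, from -0.49 to 1.1 for Adamts12 and from -0.12 to 0.79 for Adamts15 on the log2 scale, so that no difference was detectable with 4 mice a group, while each interval reached further above 0 than below. The Adamts15 difference of 0.34 was 0.09 without A117, the A10i mouse with 940 normalised counts.

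Beside these differences, the neutrophil markers were lower with A10i in all 6 genes at an unadjusted p under 0.05 and in 0 at an adjusted p under 0.01 in edgeR, with a median log2 difference of -1.74. At an unadjusted p under 0.05, 7.1% of all genes tested were higher and 6.73% lower. The highest summed neutrophil level of an A10i mouse, 47.5 CPM in A116, was below the lowest of a DMSO mouse, 67.6 CPM in A127. Fibroblast markers had a median difference of 0.43, with 4 of 7 genes higher at an unadjusted p under 0.05, and smooth muscle and pericyte markers one of 0.19, with 2 of 7 higher. The median was 0.76 for epicardial and mesothelial markers (4 of 5 higher), 0.62 for atrial markers (0 of 4) and 0.39 for macrophage markers (3 of 6). It was 0.42 for activated fibroblast (1 of 5), 0.19 for cardiomyocyte (0 of 8), 0.11 for endothelial (2 of 6) and 0.13 for Schwann cell markers (0 of 2). The part of these shifts in the differences of the ADAMTS genes was not tested.

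**Figure D4:**
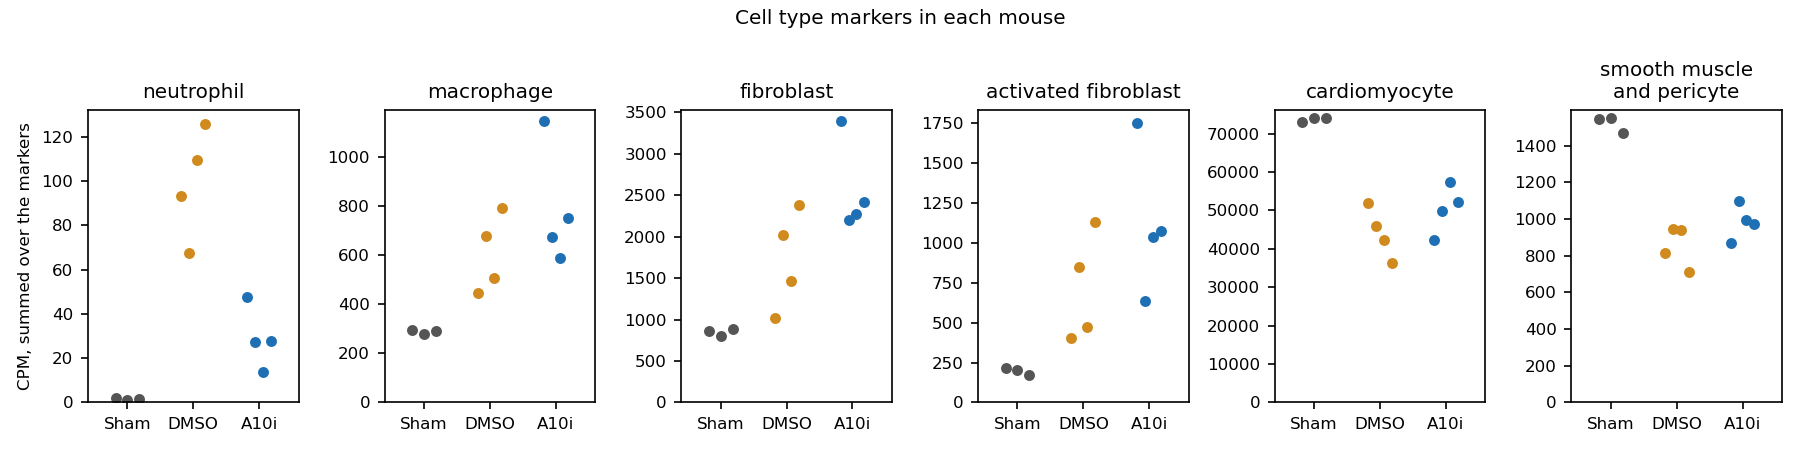
Summed level of 6 cell type marker lists in each mouse (vertical axes, CPM, each linear from 0; points are mice of the Sham, DMSO and A10i groups). Neutrophil markers separate all 3 groups, with A10i between Sham and DMSO, and fibroblast markers are lowest in the DMSO mouse A105 among infarcted hearts.

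Within the family, pairs of genes moved together across mice in different ways. Pearson's r of log2 CPM is given as a description over the 11 libraries, in which the Sham group stands apart, and then over the 8 infarcted ones. Adamts2 and Adamts12 had r = 0.985 and 0.974, and both had their lowest infarcted value in A105, the mouse with the highest Adamts1. Adamts7 and Adamts9 had r = -0.978 and -0.947, and Adamts5 and Adamts7 had 0.658 and 0.956. Of the chromosomal neighbours, Adamts1 and Adamts5 had r = -0.541 and -0.759. Adamts8 and Adamts15, which both rose in either MI group, had 0.817 over all libraries and 0.042 within the infarcted ones.

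Among the 10009 or 10010 other genes with a mean log2 CPM of at least 3, those most like each member over the 11 libraries were named by their r. For Adamts2 they were Col5a2, Bgn and Col12a1, genes of fibrillar and fibril-associated matrix (r = 0.993 each), and for Adamts12 they were Galnt16 (0.995), Srpx2 (0.99) and Olfml3 (0.99). For Adamts1 they were Nppb (0.982), which encodes brain natriuretic peptide, Hbegf (0.98), an EGF receptor ligand, and Mical1 (0.977). For Adamts4 they were Pdpn (0.992), Camk1 (0.991) and Thbs1 (0.991), which encodes thrombospondin, and for Adamts9 Rbm3 (0.991), Ier3 (0.986) and the glucose transporter gene Slc2a1 (0.983).

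For Adamts7 the most similar genes were Plxnb1 (0.967), Cavin2 (0.964) and Tmem126b (0.962), and for Papln Ltbp4 (0.979), Tmem65 (0.978) and Mylk4 (0.976). For Adamts5, which was not called against Sham, they were Fam13c (0.967), D3Ertd254e (0.91) and Slc45a4 (0.908). For Adamts8 they were Capzb, Rpl23 and Ldha (0.97 to 0.976) and for Adamts15 C4b, Adgrd1 and Ski (0.928 to 0.94), and over the 8 infarcted libraries these fell to 0.765 to 0.787 and 0.736 to 0.783. For the other members the r over the infarcted libraries was 0.912 to 0.991.

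Of 10 other ADAMTS protease genes 7 passed the filter, and 1 rose with DMSO, Adamts14, a procollagen N-proteinase like Adamts2 (log2 fold change 1.08 ± 0.21, edgeR adjusted p = 0.00334), a share near the 12.9% of all genes that rose. With A10i none of the 7 was called in edgeR. Adamts14 then had 1.04 ± 0.267 (edgeR adjusted p = 0.0116). The median log2 fold change of the 7 genes was 0.04 with DMSO and 0.14 with A10i. Of the 6 ADAMTS-like genes, which encode matrix proteins without protease activity as papilin does, none was called with DMSO in edgeR. With A10i, Adamtsl2 rose by 0.87 ± 0.157 while Adamtsl4 fell by 0.52 ± 0.108 and Adamtsl5 by 0.60 ± 0.086 on the log2 scale (edgeR adjusted p = 0.00289, 0.0043 and 0.000723), beside 13.8% and 9.09% of all genes. Adamtsl1, Adamtsl3 and Thsd4 had values between -0.10 and 0.50 in both comparisons.

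Versican, the main cardiac substrate of the hyalectanases, and genes of hyaluronan synthesis and binding were examined next. Of 9 tested genes of hyalectans and hyaluronan partners, 5 rose and 1 fell with DMSO (median log2 fold change 2.54), and 6 rose and 1 fell with A10i (median 2.06), beside 12.9% and 9.6% of all genes with DMSO and 13.8% and 9.09% with A10i. The DMSO median is the value of Hapln4, which was not called. It held 1, 0 and 3 counts in Sham and 3 to 12 with DMSO, so it passed the filter through the DMSO libraries. Hapln4 was not tested with A10i and Acan not with DMSO, so the medians cover different genes. Vcan and Acan are the proteoglycan substrates among those called, and the others make, bind or link hyaluronan. Vcan, which encodes versican, rose by 2.04 ± 0.201 with DMSO and 1.82 ± 0.185 with A10i (edgeR adjusted p = 0.000225 and 0.000319). Has1, a hyaluronan synthase, rose by 4.43 ± 0.294 and 4.21 ± 0.541, Cd44, the hyaluronan receptor, by 2.59 ± 0.194 and 2.06 ± 0.215, and Tnfaip6, which links hyaluronan to matrix proteins, by 2.78 ± 0.294 and 2.33 ± 0.305. In Sham, Has1 held 4, 3 and 7 counts, so it passed the filter through the infarcted hearts and its calls add no support. Has2, called higher in both groups as well, held 11, 6 and 10 counts in Sham. Has2 likewise passed the filter through the infarcted hearts, so its calls add no support. Has3 fell by 1.98 ± 0.261 and 1.41 ± 0.242. Acan, which encodes aggrecan, had 4, 5 and 2 counts in Sham and 6 to 25 with A10i. It did not pass the filter with DMSO and passed it with A10i through the A10i libraries, with 2.33 ± 0.531 (edgeR adjusted p = 0.00646), so its call adds no support. Without it 5 of 8 genes rose and 1 fell with A10i (median 1.94), with Has1 and Has2 still among the 5.

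**Figure D5:**
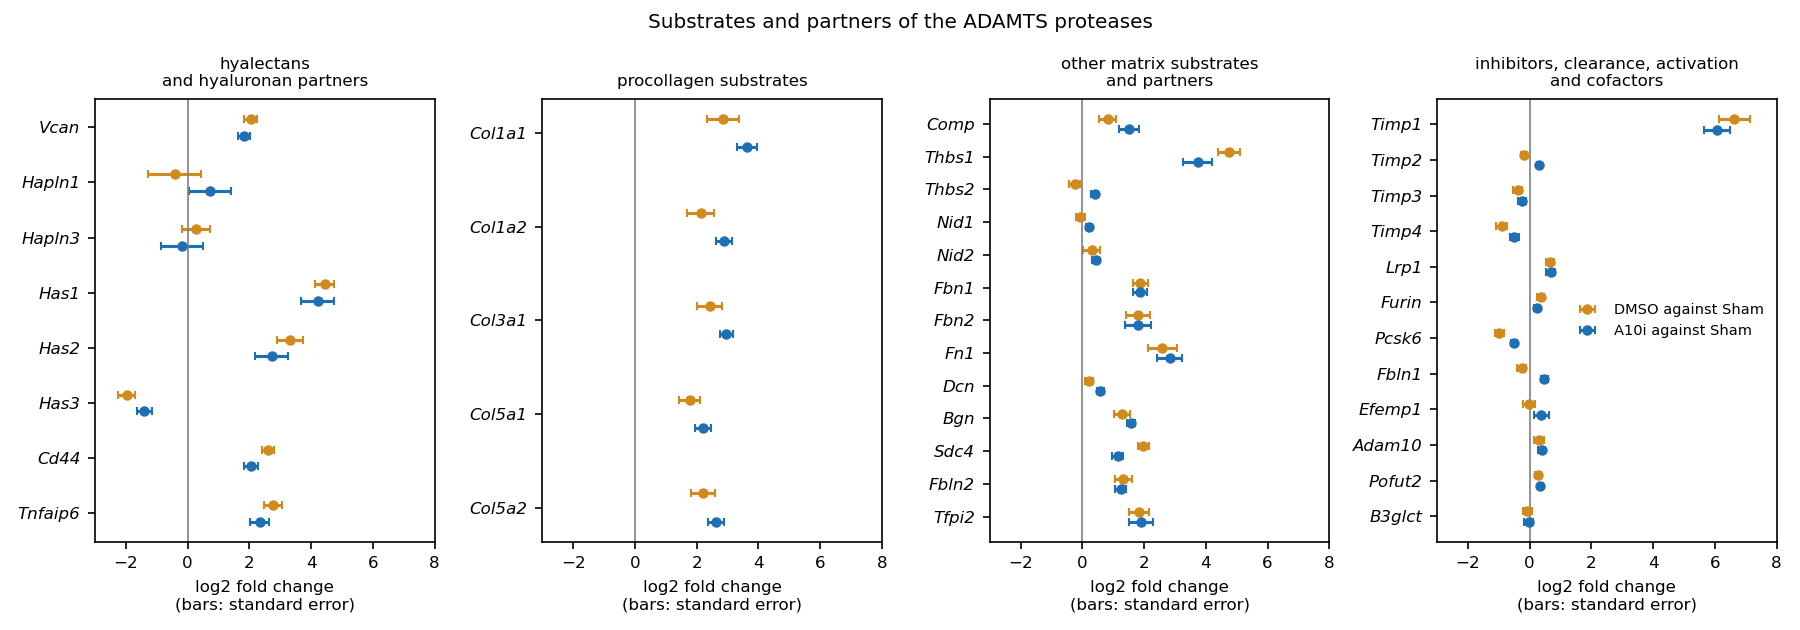
Log2 fold change against Sham (horizontal axis, bars are the standard error) of the genes of 4 lists that were tested in both comparisons, with DMSO in orange and A10i in blue; the vertical line marks 0. All 5 procollagen genes lie above 0, Has3 is the one hyaluronan synthase below it, and Timp1 stands far from the other inhibitors at 6.63 and 6.07.

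All 5 tested fibrillar procollagen genes, substrates of Adamts2 and Adamts14, rose in both groups. Of all genes tested, 12.9% rose with DMSO and 13.8% with A10i. Col1a1 rose by 2.85 ± 0.531 with DMSO and 3.64 ± 0.317 with A10i, and Col3a1 by 2.42 ± 0.405 and 2.96 ± 0.219 (edgeR adjusted p = 0.00347, 0.000203, 0.00221 and 8.04e-05). Col1a2, Col5a1 and Col5a2 rose by 1.77 to 2.90. Col1a1 is also among the fibroblast markers. Of the 13 other matrix substrates and partners, 8 rose with DMSO and 10 with A10i, beside the same shares of all genes. None of the 13 fell, where 9.6% of all genes fell with DMSO and 9.09% with A10i. Thbs1 rose by 4.74 ± 0.354 and 3.74 ± 0.473. Comp, the substrate of Adamts7 and Adamts12, had 0.82 ± 0.276 with DMSO (edgeR adjusted p = 0.0416) and rose by 1.51 ± 0.332 with A10i (edgeR adjusted p = 0.00786). Fbn1, Bgn, Sdc4 and Fbln2 rose by 1.15 to 1.98 in both groups.

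Of 12 genes for inhibitors, clearance, activation and cofactors, 2 rose and 2 fell with DMSO, and 5 rose and 1 fell with A10i, beside 12.9% and 9.6% of all genes with DMSO and 13.8% and 9.09% with A10i. Timp1 rose by 6.63 ± 0.491 and 6.07 ± 0.41 on the log2 scale (edgeR adjusted p = 7.79e-05 and 9.42e-05). Timp3, the main tissue inhibitor of ADAMTS proteases, was not called, with -0.39 ± 0.149 and -0.24 ± 0.125 (edgeR adjusted p = 0.0601 and 0.152). Timp4, the inhibitor typical of heart, fell with DMSO by 0.91 ± 0.184 (edgeR adjusted p = 0.00486) and had -0.49 ± 0.141 with A10i (edgeR adjusted p = 0.0226). Lrp1, the receptor that clears Adamts4 and Adamts5 proteins from the matrix, rose by 0.67 ± 0.131 and 0.68 ± 0.147. Pcsk6, a proprotein convertase, fell by 0.98 ± 0.146 and 0.51 ± 0.098, whereas Furin, which removes the propeptide of most ADAMTS enzymes, had 0.36 ± 0.105 and 0.23 ± 0.08 and was not called (edgeR adjusted p = 0.0227 and 0.0435). Adam10, the gene of the inhibitor's target, had 0.30 ± 0.158 and 0.39 ± 0.103 (edgeR adjusted p = 0.164 and 0.0141).

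Between A10i and DMSO none of the tested genes of these 6 lists was called at an adjusted p under 0.01 in edgeR. The smallest unadjusted p among the named ones belonged to Timp2, with 0.50 ± 0.096, Fbln1, a cofactor of Adamts1, with 0.74 ± 0.149, and Sdc4, a cell surface proteoglycan that binds ADAMTS5, with -0.83 ± 0.197 (edgeR adjusted p = 0.0821, 0.0931 and 0.127). For all 3, which were picked by their small p, the values of the MI groups were separate, as they were for 8.13% of all genes tested. Adam10 had 0.09 ± 0.159 (edgeR adjusted p = 0.853). The 5 procollagen genes had values from 0.40 to 0.78 with none at an unadjusted p under 0.05. The hyalectan list had a median of -0.27, with 2 of 10 tested genes higher and 2 lower at an unadjusted p under 0.05. Over all genes tested, 7.1% were higher and 6.73% lower at that p.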

How the data were processed

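Poly(A) RNA of 11 mouse hearts was made into strand-specific libraries and sequenced in pairs of reads. According to the submitters' processing notes, the authors used bcl2fastq 2.20.0, GSNAP 2020-12-16, the genome build mm10 and featureCounts 2.0.1. The deposited values are raw counts per Ensembl gene, whole numbers without normalization, and a gene length that was used for RPKM and TPM. Totals lay between 21702659 and 29511782 per library. Libraries of a group differed by more than counting error, so none was treated as a duplicate. Symbols and positions came from GENCODE M21, promoters from RefSeq.

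Counts were tested for each pair of groups in R 4.3.3 with edgeR 4.0.16, on the libraries of that pair alone. Low genes were removed by filterByExpr, libraries were scaled by TMM, and glmQLFit (robust) with glmQLFTest gave two-sided p-values, with Benjamini-Hochberg adjustment over all genes tested and a threshold of 0.01. The p-values measure the spread between mice. Normalised counts are counts over the TMM-scaled size of their library, times the mean size. RPKM uses the same size, and log2 CPM a prior count of 2. The standard error of a log2 fold change in edgeR was derived as its absolute value over the square root of the F statistic. Intervals of log2 differences are 95% intervals from this derived standard error and the t distribution. Alternatives were other normalizations, filters and thresholds, DESeq2 1.42.0, limma-voom (limma 3.58.1), a fit of all 11 libraries, TPM, and leaving out each mouse. The tests were also run on simulated counts in which 200 genes were changed. Far more genes were called against Sham in the real data, so that run adds no support to the calls.

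The 10 genes, the related lists and the marker lists were chosen with earlier results of these data known, so no list was tested as a set. All 10 genes are named. From each related list, every gene is named where at most 6 were tested, otherwise the 3 called genes with the smallest adjusted p in each direction and comparison, with Vcan, Acan, Timp3, Col1a1, Col3a1, Comp, Lrp1, Adam10, Furin and Fbln1 in any case. The 3 genes most like a member were taken by Pearson's r. Tbc1d2b, Gm29724 and A730049H05Rik were named for their overlap with a member, and Hapln4 and Has2 for their low counts in Sham.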

Additional observations from a re-analysis of the deposited data

Results flagged for a closer look

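For Adamts5 the 4 DMSO mice all lay below the Sham mean and the 4 A10i mice all above it, and the difference between A10i and DMSO was 0.602 on the log2 scale. That difference was tested: the adjusted p was 0.0794 in edgeR and 0.00101 in DESeq2, and it lay between 0.52 and 0.72 when 1 mouse was left out.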

How the results depend on the processing

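No member changed sign under any alternative. No paired analysis was possible because the groups share no replicate names. In DMSO against Sham, 4 members in place of 7 were called higher without a filter on low counts, and 4 to 7 when 1 mouse was left out. The 4 came from leaving out any 1 Sham mouse, which also lowered the number of genes called higher over all genes from 2214 to between 921 and 977. In A10i against Sham, 1 member in place of 2 was called lower with library size alone, without a filter, and at the low end of leaving out 1 mouse (1 to 2), and Papln was the member lost in each. There Adamts1 also lost its call in the fit of all 11 libraries (adjusted p = 0.0229) and Adamts15 without a filter (0.0201), both in edgeR, and Adamts5 gained one with library size alone (log2 0.43, adjusted p = 0.00231). In A10i against DMSO, where edgeR called none, 1 member was called lower at an adjusted p under 0.05 (Adamts9). Without a filter 2 members were called higher (Adamts5 and Adamts7) and 1 lower (Adamts9), as with DESeq2. In 1 fit of all 11 libraries 1 was called higher (Adamts7) and 1 lower (Adamts9). Over all genes this comparison had 18 higher and 25 lower calls without a filter, 106 and 125 with DESeq2, 2 and 9 in the fit of all libraries and none with limma-voom. The cause of these changes was not tested. The number of members at an unadjusted p under 0.05 kept to 3 higher and 3 lower under each other normalization, filter and tool, and to 3 or 4 higher and 3 lower when 1 mouse was left out. Adamts4 has no value against Sham under a minimum of 10 counts in every library, since its Sham libraries hold 3 to 8. The low counts of Adamts4, Acan, Has1 and Hapln4 in Sham leave their fold changes imprecise.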
